A study of Homo sapiens with 16 samples.

Results

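The effect of adding ISRIB to tunicamycin (Tm) was measured on ribosome-protected fragments (RPFs) by Ribo-Seq and on mRNA by mRNA-Seq in HEK293T cells, a line of human embryonic kidney origin with the large T antigen of SV40. Cells given 1 µg/ml Tm with 200 nM ISRIB for 1 hr were compared with cells given Tm alone for 1 hr, with 2 biological replicates (a and b) of each treatment in each assay. A transcript was analyzed when it had the same identifier and counted length in both assays and at least 10 counts in 2 or more of the 4 libraries of each assay, which held for 10842 of the 19044 transcripts joined. A gene symbol was at hand for 1866 of them, and the gene lists were tested on these alone. Untreated cells and cells given 200 nM ISRIB without Tm are shown as background, which brings the libraries in the fits to 16. All groups are 1 cell line, ribosomes in all of them were arrested with cycloheximide before lysis, and where a reading frame lies under ribosomes was not analyzed, since the deposited values are sums over the coding sequence.

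Tm blocks N-linked glycosylation, so that proteins misfold in the endoplasmic reticulum (ER) and the kinase PERK phosphorylates the initiation factor eIF2. Phosphorylated eIF2 inhibits its exchange factor eIF2B, general initiation falls, and a small class of mRNAs with upstream open reading frames (uORFs) in their leaders is translated more. ISRIB is a small molecule that makes cells insensitive to this phosphorylation. An RPF change that is not matched by an mRNA change is reported as a change in translational efficiency (TE), the RPF change minus the mRNA change on the log2 scale.

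On the joined transcripts the Tm libraries held 4172745 (a) and 3001612 (b) RPF counts and the Tm + ISRIB libraries 5852345 and 6499198. The mRNA-Seq libraries held 8576336 and 10872937 counts for Tm and 17023071 and 24499266 for Tm + ISRIB, so that the shallower arm in both assays was Tm. Levels are given as CPM, the count relative to the size of the library after TMM scaling, and they are relative to the other transcripts of the library, so that a change shared by all mRNAs is not seen. Changes are log2 fold changes of Tm + ISRIB against Tm with their standard error (SE), from edgeR's quasi-likelihood test, and a call is an adjusted p (Benjamini-Hochberg, over all 10842 transcripts) under 0.1.

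ISRIB changed RPFs of many transcripts and mRNA of none that passed the test. RPFs rose for 1036 transcripts and fell for 906, which is 17.9% of those tested (9.56% up and 8.36% down). Most of these changes were small. RPFs rose more than 2-fold for 52 transcripts (0.48%) and fell more than 2-fold for 48 (0.443%), and the median absolute RPF change was 0.19. No transcript was called in mRNA (0.0%) by edgeR or by DESeq2, with 188 at an unadjusted p under 0.05 by edgeR and 12 by DESeq2, and the median absolute mRNA change was 0.062. TE changed for 675 transcripts (6.23%), of which 404 rose (3.73%) and 271 fell (2.5%), with 27 past 2-fold upward (0.249%) and 47 past 2-fold downward (0.433%). Of the 1942 transcripts called in RPFs, 661 were also called in TE, all 661 in the same direction, and these were 97.9% of the TE calls. The mRNA change was under 0.2 in size for 91.7% of the RPF calls. The number of RPF calls was 1013 with DESeq2, 1199 without Tm replicate a, 931 without Tm replicate b and 791 without Tm + ISRIB replicate a, and the number of TE calls was 406 with DESeq2 and 70 to 184 without any 1 of the 4 replicates.

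The balance of rises and falls depends on the scaling. With libraries scaled by total counts in place of TMM, 37.6% of the RPF calls were rises against 53.3% with TMM, and 43.0% of the TE calls against 59.9%, while the median of all transcripts moved to -0.04 in RPFs. The lists described next were compared with this median, which was 0.00 in RPFs, mRNA and TE with TMM.

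**Figure D1:**
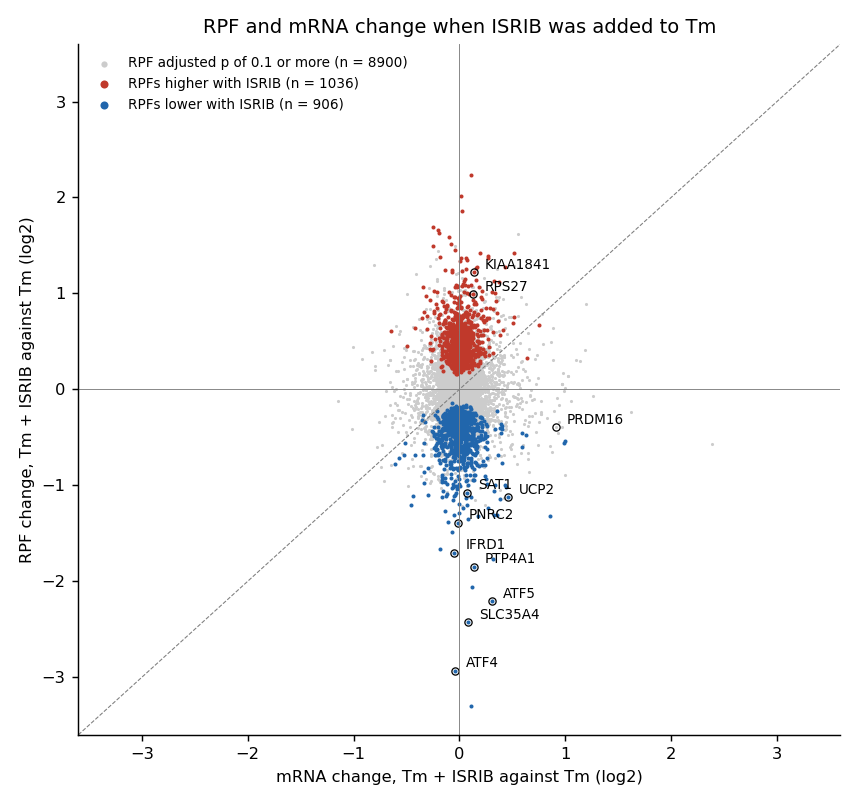
Change in RPFs (y axis, log2) against change in mRNA (x axis, log2) in Tm + ISRIB against Tm for 10842 transcripts, with the 1036 called higher in red, the 906 called lower in blue and a dashed line of equal change. The called transcripts spread along the RPF axis, from ATF4 at -2.93 to KIAA1841 at 1.22 among those labelled, and stay near 0 in mRNA.

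RPFs of the known targets of the integrated stress response fell. ATF4, the transcription factor at the head of this response, had 455 and 464 CPM of RPFs in Tm and 53.7 and 66.2 CPM in Tm + ISRIB, beside 81.7 and 61.6 CPM in untreated cells. The Tm replicates lie far above all others, and the Tm + ISRIB replicates overlap the untreated ones. This is a change of -2.93 (SE 0.11, adjusted p = 7.7e-19 by edgeR), a 7.64-fold lower level. ATF4 mRNA was 890 and 832 CPM in Tm and 853 and 819 CPM in Tm + ISRIB, a change of -0.04 (SE 0.08) that did not pass the test. Its TE changed by -2.89 (SE 0.15, adjusted p = 2.1e-10 by edgeR).

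ATF5, a related bZIP factor, had 10.5 and 10.8 CPM of RPFs in Tm and 2.06 and 2.49 CPM in Tm + ISRIB, against 1.5 and 1.34 CPM in untreated cells. It rests on few reads, 45 and 33 RPF counts in Tm and 12 and 16 in Tm + ISRIB, and it fell by 2.21 in RPFs (SE 0.32) and by 2.52 in TE (SE 0.38). PPP1R15A encodes GADD34, which brings protein phosphatase 1 to eIF2 and so reverses its phosphorylation. Its RPFs were 12.6 and 19 CPM in Tm, 5.32 and 7.15 CPM in Tm + ISRIB and 5.76 and 5.63 CPM in untreated cells. The Tm replicates lie above all others, while Tm + ISRIB overlaps untreated, and the fall was 1.29 in RPFs (SE 0.25) and 1.28 in TE (SE 0.27).

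DDIT3 encodes CHOP, a transcription factor that promotes cell death in prolonged ER stress. It had no mRNA-Seq transcript with the same identifier and length, so it was tested in Ribo-Seq alone over 11973 transcripts. Its RPF counts were 44 and 29 in Tm and 20 and 13 in Tm + ISRIB, or 9.78 and 9.04 CPM against 3.26 and 1.92 CPM, with 2.14 and 2.64 CPM in untreated cells. The change was -1.87 (SE 0.32, adjusted p = 2.0e-04 by edgeR). The 3 of these 4 targets joined between the assays were all called lower in RPFs and in TE, with a median of -2.21 in RPFs and -2.52 in TE. DESeq2 called ATF4 and gave no adjusted p for ATF5 and PPP1R15A because of their low counts, and the TE call of PPP1R15A is lost without Tm replicate b (-1.09) and without Tm + ISRIB replicate a (-1.15).

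A further 7 transcripts are uORF-containing targets that the study listed on these samples from their rise in Tm, so that their fall from Tm is not independent evidence. Of these 7, 6 were called lower in RPFs and 6 in TE, beside 8.36% and 2.5% of all transcripts, and all 7 had replicates that did not overlap, beside 27.4% of all transcripts. DESeq2 called 4 of them in RPFs and 3 in TE. PTP4A1, a tyrosine phosphatase, had 66.5 and 84.0 CPM of RPFs in Tm and 20.9 and 20.5 CPM in Tm + ISRIB, with 19.2 and 21.5 CPM in untreated cells. Its Tm + ISRIB replicates fall between the untreated ones, and it changed by -1.85 in RPFs (SE 0.14) and by -1.98 in TE (SE 0.27). SLC35A4, of the nucleotide sugar transporter family, had 8.14 and 8.83 CPM in Tm and 2.06 and 1.09 CPM in Tm + ISRIB from 12 and 7 counts, a change of -2.43 (SE 0.38).

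PNRC2, a nuclear receptor coactivator that also takes part in mRNA decay, had 31.4 and 33.4 CPM of RPFs in Tm and 11.3 and 13.2 CPM in Tm + ISRIB, and fell by 1.39 (SE 0.18). SAT1, which acetylates spermidine and spermine, was the best counted of the 7. It had 185 and 192 CPM in Tm, 84.2 and 94.1 CPM in Tm + ISRIB and 90.6 and 76.2 CPM in untreated cells, and fell by 1.08 (SE 0.09, adjusted p = 1.5e-09 by edgeR). UCP2, a carrier of the inner mitochondrial membrane, fell by 1.12 in RPFs (SE 0.17) while its mRNA was 5.22 and 4.76 CPM in Tm and 5.82 and 7.70 CPM in Tm + ISRIB. Its mRNA change was 0.46 (SE 0.37), so that its TE change of -1.59 is larger and less certain (SE 0.40).

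BCL2L11, which encodes the pro-apoptotic protein BIM, had 13.3 and 11.1 CPM of RPFs in Tm and 6.18 and 6.69 CPM in Tm + ISRIB and fell by 0.93 (SE 0.27). Its RPF call is lost without Tm replicate a (-0.79) and without Tm + ISRIB replicate a (-0.88). C7orf31 did not pass the test, with 18 and 12 counts in Tm and 7 and 17 in Tm + ISRIB and a change of -1.05 (SE 0.47, adjusted p = 0.14 by edgeR). None of the 10 joined targets of both lists was called in Tm + ISRIB against untreated cells, where 2.71% of all transcripts were called, while all 10 were called in Tm against untreated cells, where 13.8% were. These comparisons share libraries with the one described here. For the 7 listed from their rise in Tm, the calls in Tm against untreated cells follow from the listing and are not evidence. Median RPF changes against untreated cells were 2.69 in Tm and 0.14 in Tm + ISRIB for the 3 targets of the stress response, and 1.5 and 0.11 for the other 7.

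**Figure D2:**
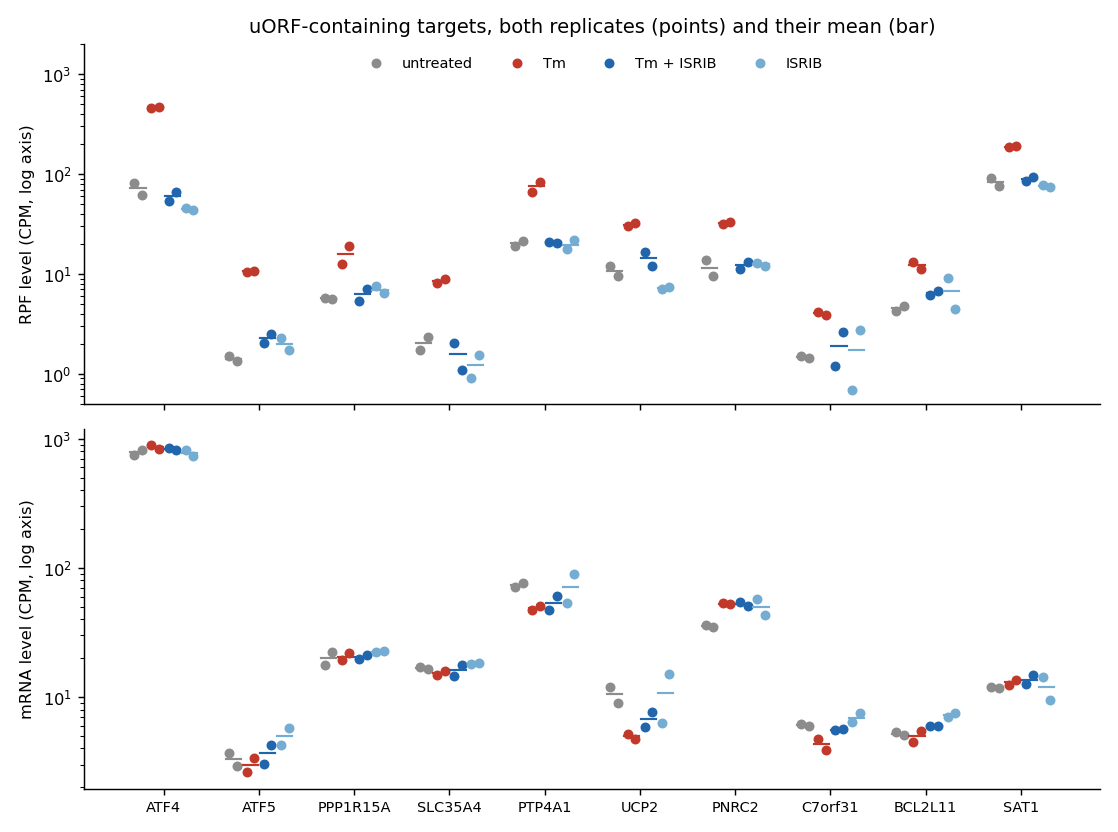
RPF level (upper panel) and mRNA level (lower panel), both in CPM on log axes, of 10 uORF-containing targets in untreated, Tm, Tm + ISRIB and ISRIB cells, with each replicate as a point and the mean of 2 as a bar. In the RPF panel both Tm points lie above both Tm + ISRIB points for all 10 transcripts. ATF4 goes from 455 and 464 CPM to 53.7 and 66.2 CPM. In the mRNA panel the changes from Tm to Tm + ISRIB run from -0.04 to 0.46 (log2), with UCP2 the highest, and none was called.

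Among transcripts with a symbol and a mean of at least 50 RPF counts, the largest other falls were IFRD1, SLC25A44, AZI2, OST4 and ZNF35. A part of the symbols came from the study's lists of transcripts changed more than 2-fold on these samples. The ranking can therefore be preselected and is not independent evidence. IFRD1, a transcriptional coregulator, had 102 and 81.1 CPM of RPFs in Tm and 28.8 and 28.0 CPM in Tm + ISRIB, with 37.7 and 31.4 CPM in untreated cells. Both Tm + ISRIB replicates lie under the untreated ones, and the fall was 1.70 in RPFs (SE 0.13) and 1.66 in TE (SE 0.16). SLC25A44, a mitochondrial carrier, fell from 23.7 and 21.6 CPM to 11.3 and 12.3 CPM, by 0.95 (SE 0.18). AZI2, an adaptor of the kinase TBK1, fell from 14.7 and 14.4 CPM to 9.61 and 5.75 CPM, by 0.93 (SE 0.24). Its Tm + ISRIB replicates stand apart from each other, and its RPF call is lost without replicate b of Tm + ISRIB (-0.60).

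OST4, a very short subunit of the oligosaccharyltransferase that attaches N-glycans, had 42.8 and 46.8 CPM of RPFs in Tm and 25.7 and 24.7 CPM in Tm + ISRIB, and fell by 0.82 (SE 0.15). Only 18 codons of it were counted. ZNF35, a zinc finger protein, fell by 0.81 (SE 0.20) in RPFs and by 0.93 (SE 0.19) in TE, and both calls are lost without Tm replicate a (-0.63 and -0.76). PRDM16, a zinc finger transcription factor, was called lower in TE (-1.31, SE 0.33) with an RPF change of -0.39 (SE 0.22) and an mRNA change of 0.91 (SE 0.24), neither of which passed its own test. Its mRNA was 2.02 and 1.96 CPM in Tm and 3.18 and 4.20 CPM in Tm + ISRIB, and this is the one named TE change in which the mRNA moved more than the RPFs. The TE call of PRDM16 is lost without any 1 of the 4 replicates, with changes between -1.39 and -1.17 over the alternatives.

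The rest of the eIF2 pathway moved less. Of 12 tested members of the pathway list, which holds ATF4, ATF5 and PPP1R15A as well, 4 were called lower and 1 higher in RPFs, with a median of -0.11. Apart from those 3 targets, 1 fall and 1 rise among 9 members are near the 8.36% and 9.56% of all transcripts. The fourth fall was PPP1R15B, the constitutive partner of protein phosphatase 1 in dephosphorylating eIF2, at -0.56 (SE 0.11), and the rise was EIF2AK2, the eIF2 kinase PKR, at 0.31 (SE 0.10), which is not called without Tm replicate a or without Tm + ISRIB replicate b. Of 11 initiation and poly(A)-binding factors, PABPC4, a poly(A)-binding protein, rose by 0.23 (SE 0.07) and EIF4E2, a cap-binding protein, fell by 0.28 (SE 0.10), and the median was -0.01. The call of EIF4E2 is lost with DESeq2 and without any 1 of the 4 replicates, and that of PABPC4 with total-count scaling and without 3 of the 4.

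RPFs on mRNAs of the listed cytosolic ribosomal proteins rose. The list covers only members with a symbol at hand, which are a part of this class. All 14 tested members of the list of cytosolic ribosomal proteins and elongation factor were called higher in RPFs, beside 9.56% of all transcripts, and 12 were called higher in TE, beside 3.73%. For all 14 both Tm + ISRIB replicates lay above both Tm replicates, which held for 28.4% of all transcripts. The RPF changes ran from 0.30 to 0.99 with a median of 0.53, and the mRNA changes from -0.01 to 0.13 with a median of 0.04 and no call. All 14 RPF calls were kept under each of the 12 alternatives tried, whereas the TE calls fell to between 3 and 5 when 1 replicate was left out.

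RPS27, a small subunit protein, rose most. It had 196 and 190 CPM of RPFs in Tm and 363 and 405 CPM in Tm + ISRIB, with 317 and 363 CPM in untreated cells, and its change was 0.99 (SE 0.08, adjusted p = 3.5e-10 by edgeR). RPL11, a large subunit protein that also binds MDM2, had 688 and 690 CPM in Tm, 1154 and 1140 CPM in Tm + ISRIB and 1069 and 1062 CPM in untreated cells, and rose by 0.73 (SE 0.06). In both the Tm replicates lie under all others. RPL37A rose by 0.63 (SE 0.08) and RPL14 by 0.58 (SE 0.07).

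The smallest rises were those of RPL15 at 0.30 (SE 0.07) and of RPSA, the laminin receptor precursor that is part of the small subunit, at 0.37 (SE 0.07). EEF1B2, which recharges elongation factor eEF1A with GTP, had 475 and 456 CPM of RPFs in Tm and 653 and 620 CPM in Tm + ISRIB and rose by 0.45 (SE 0.07), within the range of the ribosomal proteins. RPL15 and RPL31 were the 2 members not called in TE. None of the 14 was called in Tm + ISRIB against untreated cells, with a median of 0.06, and all 14 were called in Tm against untreated cells, with a median of -0.47, in comparisons that share libraries.

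**Figure D3:**
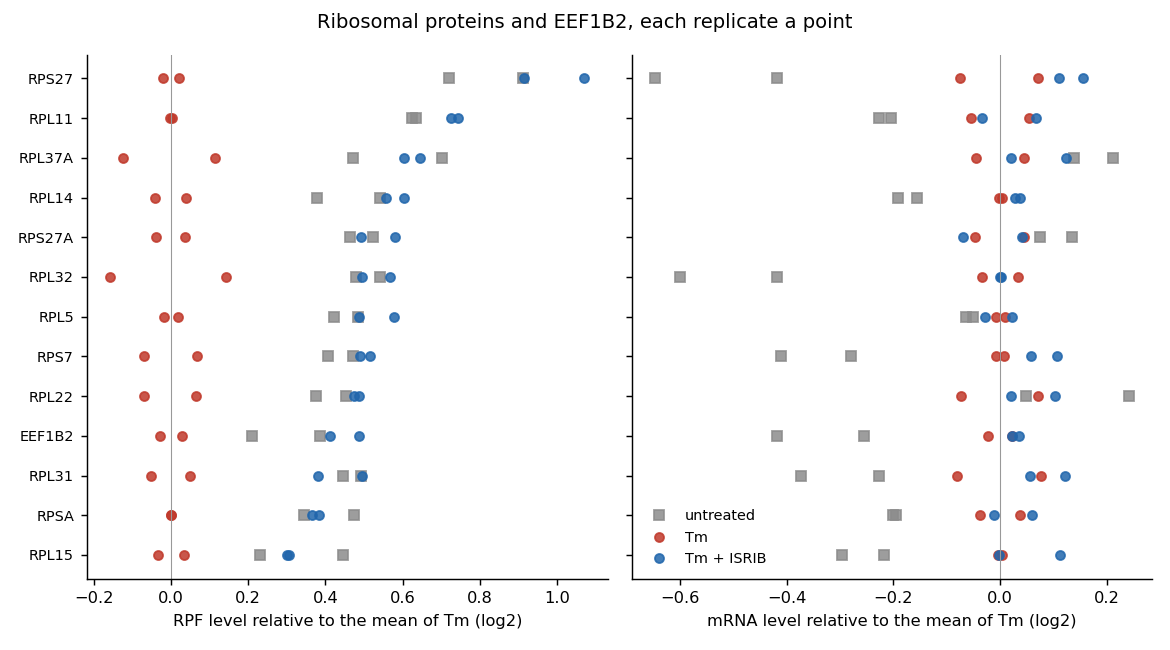
RPF level (left) and mRNA level (right) of 12 ribosomal proteins and EEF1B2 in each replicate of untreated, Tm and Tm + ISRIB cells, on a log2 scale relative to the mean of the Tm replicates. In RPFs both Tm + ISRIB points lie to the right of both Tm points for all 13 shown, and the mRNA points of Tm and Tm + ISRIB lie between -0.08 and 0.15 of the Tm mean.

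Messenger RNAs of ribosomal proteins are known for a 5′ terminal oligopyrimidine (TOP) tract, a C at the cap followed by a run of pyrimidines, through which growth signals control their translation. The starts are shown because most listed genes with an entry have a run of pyrimidines from an annotated start. RPS7 is one whose run is only 3 bases. These starts are from RefSeq (GRCh38.p14), 10 bases before and 20 from the annotated start. The run of pyrimidines that begins at the start is in capitals. Coordinates of the starts are in the RefSeq build, while the deposited counts were made on hg19.
RPS27: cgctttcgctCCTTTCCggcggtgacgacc
RPL11: gctccgctttCTCTTCCTgctctccatcat
RPL37A: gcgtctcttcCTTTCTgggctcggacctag
RPL31: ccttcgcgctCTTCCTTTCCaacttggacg
RPSA: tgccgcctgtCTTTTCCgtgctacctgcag
EEF1B2: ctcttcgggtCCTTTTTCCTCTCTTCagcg
RPS7: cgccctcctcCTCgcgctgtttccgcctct

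These windows lie on the plus strand at chr1:153990752-153990781 (RPS27), chr1:23691796-23691825 (RPL11), chr2:216498834-216498863 (RPL37A), chr2:101002279-101002308 (RPL31), chr3:39406710-39406739 (RPSA), chr2:206159885-206159914 (EEF1B2) and chr2:3575250-3575279 (RPS7), each across the start of the first exon. A start was counted as a pyrimidine start when its first base was C and at least 4 further bases were C or T. A gene was counted when any of its annotated starts met this rule, here and for the transcripts outside the list. Of the 12 listed genes with a RefSeq entry, 9 had such a start, beside 5.14% of all 27305 genes and 4.07% of all 35116 starts. Among those shown, RPL11 and EEF1B2 also have an annotated start with a run of 0, which is not printed. RPL5 had no entry. Of the 3 without such a start, RPS7 rose by 0.50 (SE 0.07) and RPL32 by 0.53 (SE 0.08). RPL15 at 0.30 (SE 0.07) lay under the lowest of those with one, RPSA at 0.37 (SE 0.07). The rule counts only a run from the annotated first base and misses a tract that begins at a nearby base. Whether the mRNAs of these 3 lack a TOP tract was not tested.

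Transcripts with a pyrimidine start outside this list lay nearer to the median of all transcripts. Of 112 other tested transcripts with one, 13 were called higher in RPFs (11.6%) and 8 lower (7.14%), and their median was 0.07. Of 1402 without one, 8.42% were called higher and 8.99% lower, with a median of -0.01, and 340 had no entry. The falling transcripts IFRD1 and AZI2 are among those with a pyrimidine start, as is the rising CRTAP.

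Of the 1866 transcripts with a symbol, 1758 were matched to GENCODE v29 isoforms with the same coding length, and their upstream AUGs were counted in the leader. ATF4 had 3 to 7 AUGs by isoform, PTP4A1 2 to 17, SLC35A4 11 to 20, and OST4, which also fell, had 0. No difference between classes was tested. With the isoform of fewest AUGs, 10.0% of the 100 transcripts with 5 or more were called lower in RPFs and 9.52% of the 945 with none, and the medians were -0.01 and 0.00. With the isoform of most AUGs these shares were 10.7% of 205 and 9.57% of 794. In TE, with the isoform of most AUGs, 3.90% of those with 5 or more were called lower and 6.83% higher, against 2.02% and 3.78% of those with none, and with the isoform of fewest AUGs these were 3.0% and 7.0% against 1.69% and 4.44%.

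Apart from RPS27, the 9 largest rises among transcripts with a symbol and a mean of at least 50 RPF counts were KIAA1841, GALNT13, GLRB, MYO5B, POMGNT1, AGAP1, NGEF, CRTAP and ARHGEF11. As with the falls, this ranking can be preselected, since a part of the symbols came from the study's lists of changed transcripts. KIAA1841 had 7.21 and 6.21 CPM of RPFs in Tm and 15.8 and 15.9 CPM in Tm + ISRIB, beside 13.9 and 14.3 CPM in untreated cells, and rose by 1.22 (SE 0.22). POMGNT1, which extends O-mannose glycans, had 14.4 and 11.8 CPM in Tm and 29.2 and 26.4 CPM in Tm + ISRIB and rose by 1.06 (SE 0.17). MYO5B, a motor of vesicle transport, had 11.9 and 9.81 CPM in Tm and 21.8 and 24.3 CPM in Tm + ISRIB and rose by 1.07 (SE 0.18). In all 3 the Tm + ISRIB replicates lie close to the untreated ones, which were 25.4 and 26.1 CPM for POMGNT1 and 23.5 and 22.9 CPM for MYO5B.

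CRTAP, a partner of the collagen prolyl 3-hydroxylase in the ER, was the best counted of these 9. It had 61.4 and 60.2 CPM of RPFs in Tm and 116 and 103 CPM in Tm + ISRIB, and rose by 0.85 (SE 0.11, adjusted p = 1.0e-06 by edgeR) with an mRNA change of 0.02 (SE 0.07). GALNT13, which starts O-glycans, rose by 1.13 (SE 0.25), from 29 and 15 counts in Tm to 89 and 71 in Tm + ISRIB. GLRB, a subunit of the glycine receptor, rose by 1.08 (SE 0.23), AGAP1, a GTPase-activating protein of Arf, by 0.96 (SE 0.19), NGEF, a guanine exchange factor of neurons, by 0.87 (SE 0.23, not called without Tm replicate a or without Tm + ISRIB replicate a) and ARHGEF11, also a guanine exchange factor, by 0.78 (SE 0.15). CD55, which restrains complement at the cell surface, was among the 10 largest rises in TE at 0.80 (SE 0.14), with 30.2 and 31.1 CPM of RPFs in Tm and 53.5 and 50.4 CPM in Tm + ISRIB.

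Lists of the cell surface and the secretory pathway are given next, beside 9.56% of all transcripts called higher and 8.36% called lower in RPFs, and 3.73% and 2.5% in TE. Of 40 tested receptors, adhesion and extracellular matrix proteins, 16 were called higher and 0 lower in RPFs, with a median of 0.33, and 37 lay above 0. In TE 5 were called higher and 0 lower. Against untreated cells, in comparisons that share libraries, their median RPF change was -0.09 in Tm and 0.20 in Tm + ISRIB. Of the 40, 9 were called in the former and 6 in the latter, beside 13.8% and 2.71% of all transcripts. FN1, fibronectin, had 176 and 133 CPM of RPFs in Tm and 255 and 240 CPM in Tm + ISRIB, with 182 and 200 CPM in untreated cells, and rose by 0.66 (SE 0.09, adjusted p = 9.1e-06 by edgeR). PXDN, a peroxidase of the matrix, rose by 0.70 (SE 0.13), PTPRF, a receptor phosphatase, by 0.53 (SE 0.10) and TGFBR3, a coreceptor of TGF-beta, by 0.55 (SE 0.16). The 16 RPF calls fell to 5 without Tm replicate b, to 5 without Tm + ISRIB replicate a, and to 9 with DESeq2, and the direction was kept by all calls in each of these.

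Of 15 tested factors of ER folding and degradation, 4 were called higher in RPFs (9.56% of all transcripts) and 0 lower, with a median of 0.15. They were DNAJC10, an ER reductase, at 0.58 (SE 0.12), MOGS, which trims glucose from N-glycans, at 0.41 (SE 0.11), PDIA6, a disulfide isomerase, at 0.40 (SE 0.08) and AUP1, of ER-associated degradation, at 0.31 (SE 0.11). PDIA6 had 303 and 254 CPM of RPFs in Tm and 387 and 350 CPM in Tm + ISRIB. Of 13 tested members of the ER translocation and N-glycosylation list, 4 were called higher and 1 lower, and the median was 0.08. DDOST, a subunit of the oligosaccharyltransferase, rose by 0.65 (SE 0.09) from 332 and 260 CPM in Tm to 505 and 429 CPM in Tm + ISRIB, and OST4, a subunit of the same enzyme, fell as given above. EMC1, of the ER membrane complex, rose by 0.34 (SE 0.08), MOGS is on both lists, and SSR2, of the translocon-associated complex, rose by 0.26 (SE 0.09). The 4 rises of this list fell to 1 without Tm replicate b. Of 13 early secretory traffic factors, MIA3, which exports collagen from the ER, rose by 0.35 (SE 0.10) and RER1, which returns proteins to the ER, by 0.27 (SE 0.09), with a list median of -0.01. Neither was called without Tm replicate b.

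Lists of nuclear functions had more falls than rises among their calls. Of 28 tested transcripts of splicing and RNA binding factors, 11 were called lower and 0 higher in RPFs, with a median of -0.18, and 2 were called lower in TE, beside 8.36% of all transcripts lower in RPFs and 2.5% in TE. CLK1, a kinase of splicing factors, had 43.3 and 38.6 CPM of RPFs in Tm and 22.5 and 29.1 CPM in Tm + ISRIB and fell by 0.67 (SE 0.14). PRPF38A, of the spliceosome, fell by 0.61 (SE 0.14) and SF3B4, of the U2 particle, by 0.28 (SE 0.08). The 11 calls fell to 4 without Tm replicate b, to 3 without Tm + ISRIB replicate a and to 7 with DESeq2.

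Of 23 tested replication and mitosis factors, 9 were called lower in RPFs (8.36% of all transcripts) and 0 higher, with a median of -0.15, and 1 was called in TE, near the 2.5% of all transcripts called lower. CENPA, the histone variant of centromeres, fell by 0.75 (SE 0.23) from 13.5 and 17.0 CPM to 7.21 and 10.6 CPM, KIF2C, a kinesin of the mitotic spindle, by 0.32 (SE 0.08) and CLSPN, of the replication checkpoint, by 0.25 (SE 0.08). This count was 2 with DESeq2, 4 without Tm replicate a, 2 without Tm replicate b, 1 without Tm + ISRIB replicate a and 5 without Tm + ISRIB replicate b.

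Of 12 tested transcripts of 9 replication-dependent histone genes, 7 were called lower in RPFs (8.36% of all transcripts) and 0 higher, with a median of -0.21, and 3 were called lower in TE (2.5% of all transcripts). The genes have near-identical copies that share reads, and the 2 transcripts of HIST2H3C hold equal counts, so that these members are uncertain as separate measurements. HIST2H2BE had 1408 and 1454 CPM of RPFs in Tm and 970 and 1014 CPM in Tm + ISRIB, with 1225 and 1283 CPM in untreated cells, and fell by 0.53 (SE 0.06, adjusted p = 5.1e-07 by edgeR). HIST2H2BF fell by 0.46 (SE 0.06). In Tm + ISRIB against untreated cells they changed by -0.34 and -0.30, and both were called there. The 7 calls fell to 4 without Tm replicate a and 3 without Tm + ISRIB replicate a, and were 11 with total-count scaling.

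Of 25 ribosome biogenesis factors, 6 were called lower in RPFs (8.36% of all transcripts) and 2 higher, with a median of -0.12. The 2 rises are near the 9.56% of all transcripts called higher, and become 0 without Tm replicate a or without Tm + ISRIB replicate a. DNTTIP2, a nucleolar protein, had 154 and 176 CPM of RPFs in Tm and 89.7 and 111 CPM in Tm + ISRIB, with 105 and 82.6 CPM in untreated cells, and fell by 0.71 (SE 0.11). NOL10, also nucleolar, rose by 0.34 (SE 0.10). The 6 falls became 2 without Tm replicate b and 2 without Tm + ISRIB replicate a. Of 19 mitochondrial ribosomal proteins, 4 were called lower (8.36% of all transcripts) and 2 higher, the latter near the 9.56% of all transcripts, with a median of -0.08. Of these MRPL37 rose by 0.46 (SE 0.08), MRPS15 by 0.40 (SE 0.09) and MRPL35 fell by 0.42 (SE 0.12). The 4 falls became 1 without Tm replicate b, 1 without Tm + ISRIB replicate a, and 2 without Tm + ISRIB replicate b or with DESeq2.

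Of 17 immediate early and short-lived mRNAs, 3 were called lower (8.36% of all transcripts) and 1 higher (9.56% of all transcripts), with a median of -0.28. CYR61, a matrix-associated growth regulator, rose by 0.73 (SE 0.15), while JUN, of the AP-1 factor, fell by 0.34 (SE 0.11), IER5 by 0.56 (SE 0.21) and MCL1, an anti-apoptotic protein, by 0.31 (SE 0.11). The calls of MCL1 and IER5 are lost without either Tm replicate and with DESeq2, as is that of JUN. Of 16 tested transcripts of amino acid and one-carbon metabolism, 1 was called higher and 1 lower, with a median of -0.08, and MTHFD2, a mitochondrial folate enzyme, rose by 0.42 (SE 0.09).

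The synthetase, proteasome, respiratory chain and chaperone lists had at most 1 call each in RPFs, beside 9.56% of all transcripts called higher and 8.36% called lower. In lists this small such counts are near those shares and do not set the lists apart. None of 5 cytosolic aminoacyl-tRNA synthetases was called (median 0.13), and 1 of 6 mitochondrial ones was (median -0.18, with all 6 below 0), TARS2 at -0.31 (SE 0.09), which is not called without Tm replicate a or without Tm + ISRIB replicate b. Of 7 proteasome subunits PSMD1 fell by 0.19 (SE 0.07), of 12 respiratory chain subunits SDHC fell by 0.20 (SE 0.08), and of 10 chaperones HSPD1, the mitochondrial chaperonin, rose by 0.25 (SE 0.06). The calls of PSMD1 and SDHC are lost with DESeq2 and without 3 or 4 of the 4 replicates in turn. Coding length moved little with the change, with a median RPF change of -0.03 in the fifth of transcripts with the shortest counted sequence and 0.03 in the fifth with the longest.

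**Figure D4:**
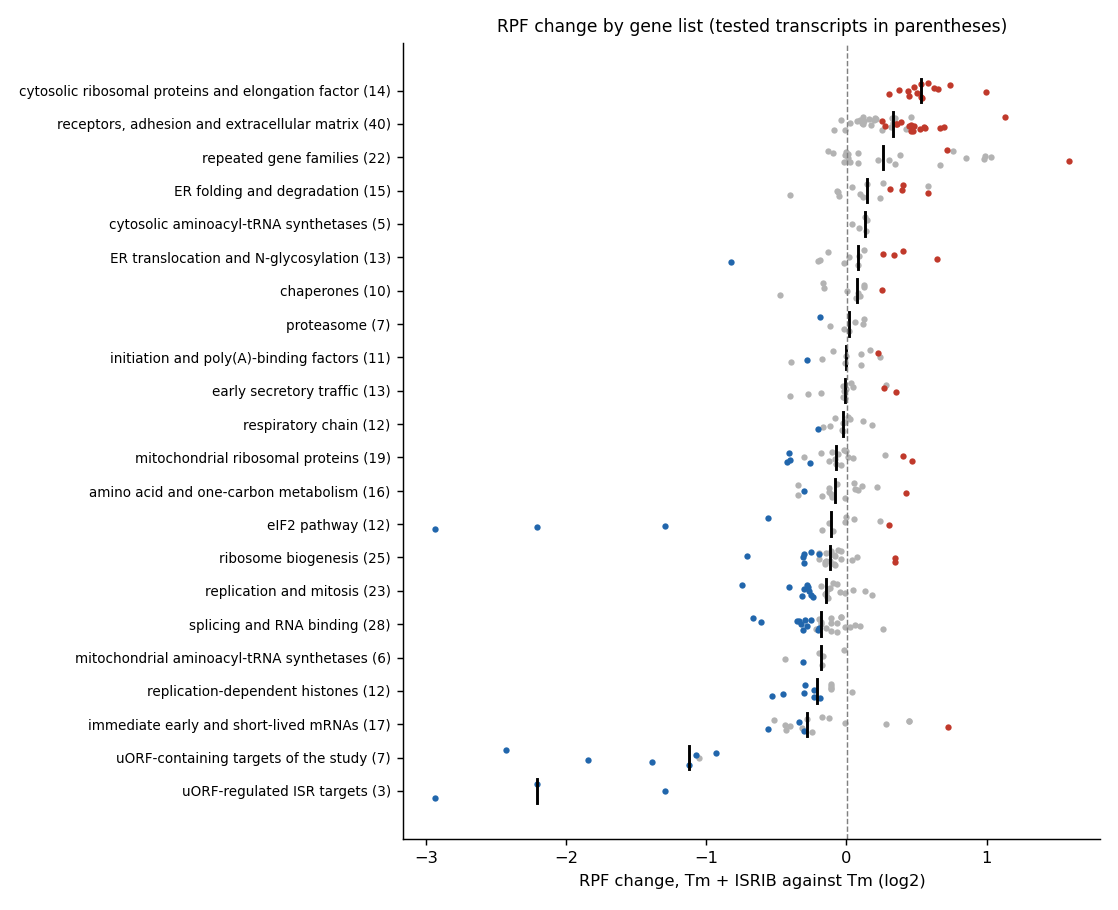
RPF change in Tm + ISRIB against Tm (x axis, log2) of the tested transcripts of each list (rows), with calls in red (higher) and blue (lower), other members in grey, list medians as black bars and the median of all transcripts as a dashed line. The medians run from -2.21 for the 3 uORF-regulated targets to 0.53 for the 14 ribosomal proteins and elongation factor, with the other lists between them.

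ISRIB without Tm changed little in comparison. In ISRIB against untreated cells, RPFs of 2 transcripts (0.0184%) were called, of which ATF4 was one, with 45.3 and 43.4 CPM in ISRIB and 81.7 and 61.6 CPM in untreated cells. The difference between the ISRIB effect with Tm and the effect without Tm was tested as an interaction over the 8 Ribo-Seq libraries. It was called as lower for 346 transcripts (3.19%) and as higher for 421 (3.88%). Of the 10 joined uORF-containing targets, 7 were called lower in this difference, with ATF4 at -2.25 (SE 0.16, adjusted p = 1.5e-10 by edgeR), ATF5 at -2.68 (SE 0.56) and PTP4A1 at -1.81 (SE 0.21). UCP2, SLC35A4 and C7orf31 were not called. The change of Tm against untreated cells is part of this difference, and the study listed 7 of the 10 from that change. The calls of those 7 are therefore not independent evidence, in RPFs or in TE.

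Of the 14 ribosomal proteins and elongation factor, 9 were called higher in this RPF difference and 0 lower. The shares of all transcripts were 3.88% and 3.19%. RPS27 was at 0.71 (SE 0.11). The median RPF change of the 14 in ISRIB without Tm was 0.13, with no call among them. In TE the difference was called as lower for 0.443% of all transcripts and as higher for 0.968%, and of the 10 targets ATF4, ATF5 and PTP4A1 were called. Of the 40 receptors, adhesion and extracellular matrix proteins, 7 were called higher in RPFs and 0 lower, beside 3.88% and 3.19% of all transcripts.

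**Figure D5:**
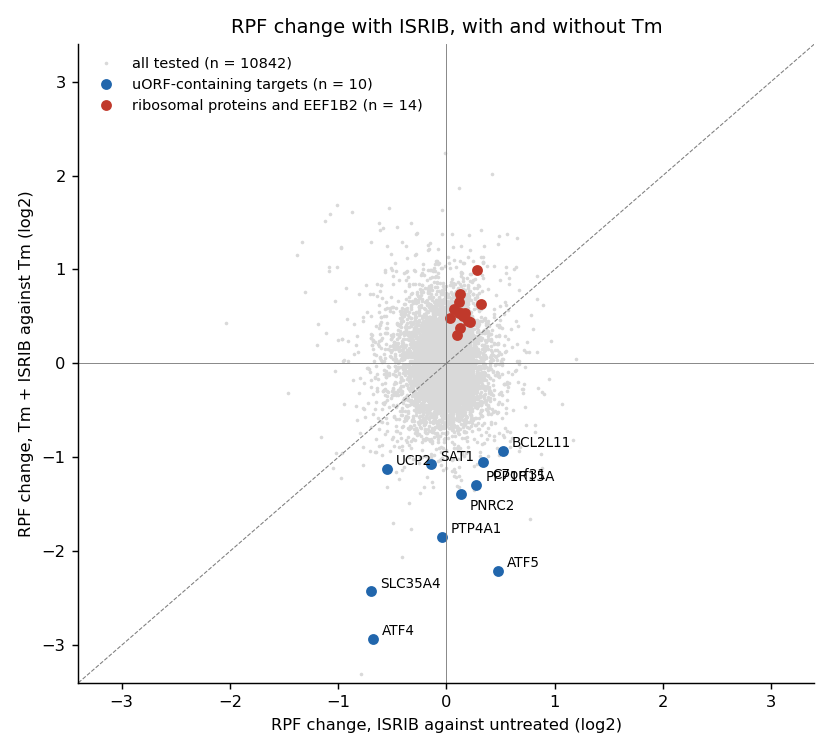
RPF change of ISRIB given with Tm (Tm + ISRIB against Tm, y axis, log2) against RPF change of ISRIB given alone (ISRIB against untreated, x axis, log2). All 10842 transcripts are in grey, 10 uORF-containing targets in blue and the 14 members of the ribosomal list, EEF1B2 included, in red. The dashed line marks equal change. All 10 targets lie under the dashed line and all 14 ribosomal members above it, and of the targets ATF4 lies furthest down at -2.93 with Tm and -0.68 without. For the 7 targets listed from their rise in Tm, the position under the line is not independent evidence.

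The cell line was checked by a few markers with a symbol. STMN1, LMNA, SIX2 and NES were chosen as 4 genes that HEK293T cells are known to express. STMN1 and LMNA had 1380 to 2680 and 515 to 1097 RPF counts in the 4 libraries. SIX2, a factor of kidney progenitors, had only 10 to 18. NES, of neural progenitors, had 1 to 11 and did not pass the filter, so that the check was not met by all 4. None of the tested markers of striated muscle or lymphoid cells was called. Of these NEB, at 1 to 4 RPF counts, and CD101, at 1 to 2, were near 0. Low counts were found for CR2 (20 to 66), CXCR4 (25 to 71), ACTN2 (13 to 28), IL18R1 (5 to 22) and IKZF2 (2 to 17), while ACTA1, of skeletal muscle actin, had 590 to 1239 and RYR2 126 to 287. ACTA1 is close in sequence to the actins of all cells, so that its counts are uncertain.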

How the data were processed

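Ribo-Seq and mRNA-Seq libraries were made from the same lysates of HEK293T cells, with 2 biological replicates (a and b) per treatment. The files deposited hold, for each transcript, an unnormalized read count and the number of codons counted, on hg19, and the submitters' processing notes name CASAVA 1.8, Bowtie 1.0.0 and TopHat2 2.0.7 and 2.0.10. The first and last codons of each coding sequence were left out of the deposited counts, so that very short reading frames rest on few codons. Cycloheximide was used to arrest ribosomes, which can shift footprints along a transcript, and only sums over coding sequences were analyzed.

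The Ribo-Seq tables held 21520 coding transcripts, of which 19938 had an mRNA-Seq transcript of the same identifier without version, and 19044 of these had the same number of codons. Transcripts with at least 10 counts in 2 or more of the 4 libraries compared in each assay were tested. Symbols were taken from the study's read count table, which was at hand in part, with 1998 rows. They also came from 82 rows of its lists of transcripts changed more than 2-fold on these samples. Of the joined transcripts, 1944 had a symbol. Counts were tested with edgeR 4.0.16 (R 4.3.3, quasi-likelihood, TMM, Benjamini-Hochberg threshold 0.1), over the 8 libraries of an assay, or over all 16 with an interaction of assay and treatment for TE. The common biological coefficient of variation came to 5.62% for footprints and 6.7% for mRNA. The standard error is the log2 fold change divided by the root of the F statistic. The TE fit had no term for the lysate shared by the 2 assays, so that its standard errors and p-values ignore this pairing. The replicate block was fitted within each assay and does not restore it. The fits were tested on simulated data.

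The alternatives were DESeq2 1.42.0, other scalings, other count minimums, only the libraries compared, the replicate letter as a block, another join and leaving out each replicate. Named transcripts are the uORF-containing targets, the 10 largest rises and falls in RPFs and in TE among called, non-overlapping transcripts with a symbol and a mean of 50 counts, the 3 members of each list with the smallest p in RPFs and in TE, and transcripts that 1 library decides. Some members that this rule names are not reported here. PPP1R15B, EIF2AK2, AUP1, SSR2 and HIST2H3C fall outside this rule and were chosen after their values were seen. The members and lists were chosen with earlier results of these data known, and the interaction with Tm, the starts and the upstream AUGs were examined after the data were seen. Python 3.11.15 with pandas 2.3.3, numpy 2.4.6 and matplotlib 3.10.9 was used for tables and plots.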

Additional observations from a re-analysis of the deposited data

Results flagged for a closer look

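For each of the following transcripts the effect of ISRIB with Tm differed from its effect without Tm, by the interaction term of edgeR's quasi-likelihood fit with an adjusted p under 0.1. Values are the effect with Tm minus the effect without Tm on the log2 scale.

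Among the uORF-containing targets the difference in RPFs was -2.25 for ATF4, -2.68 for ATF5, -1.57 for PPP1R15A, -1.81 for PTP4A1, -1.53 for PNRC2, -0.94 for SAT1 and -1.45 for BCL2L11. In TE it was -2.24 for ATF4, -2.44 for ATF5 and -2.01 for PTP4A1. The study listed PTP4A1, PNRC2, SAT1 and BCL2L11 from their rise in Tm. That rise is part of this difference, so that their values are not independent evidence. ATF4 also fell in RPFs with ISRIB alone, by 0.68 (adjusted p = 0.033 by edgeR), so that its difference is smaller than its change with Tm.

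Among the other falling transcripts the difference in RPFs was -1.21 for IFRD1, -1.09 for SLC25A44, -1.04 for AZI2 and -1.02 for OST4, and in TE it was -1.33 for IFRD1. Among the rising transcripts the difference in RPFs was 1.30 for KIAA1841, 1.16 for GLRB, 1.14 for POMGNT1, 1.04 for MYO5B, 1.04 for AGAP1, 0.81 for ARHGEF11, 0.73 for CRTAP and 0.71 for RPS27. In TE it was 1.25 for POMGNT1, 1.22 for MYO5B, 1.22 for AGAP1, 0.82 for RPS27 and 0.72 for CRTAP. These falling and rising transcripts were named for the size of their change with Tm. That change is part of this difference, so that these values are not independent evidence.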

How the results depend on the processing

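No named transcript changed direction under any alternative, and no transcript was called in mRNA under any of them. With DESeq2 the RPF calls went from 1942 to 1013, those past 2-fold from 100 to 22, the TE calls from 675 to 406 and those past 2-fold from 74 to 16. With a minimum of 50 counts there were 29 RPF and 34 TE calls past 2-fold, and with only the libraries compared there were 1014 TE calls. Leaving out 1 replicate gave 791 to 1460 RPF calls, 61 to 129 past 2-fold, 70 to 184 TE calls and 18 to 53 past 2-fold, the fewest RPF calls without Tm + ISRIB replicate a and the fewest TE calls without Tm replicate b. Of 86 named RPF results, 9 to 23 lost their call without 1 replicate, and of 61 named TE results 34 to 45 did. The cause was not tested.

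With the replicate letter as a block there were 2014 RPF calls and 731 TE calls, and C7orf31 was called in RPFs (-1.11) and in TE (-1.50), while SDHC lost its call in RPFs and RER1 in TE. The deviations of samples of the same letter correlated at 0.222 across transcripts in Ribo-Seq and 0.108 in mRNA-Seq, and the labels do not say that a letter marks a shared batch.

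Depth limits the low transcripts most. DDIT3, SLC35A4, ATF5 and C7orf31 rest on under 50 RPF counts in each of the 4 libraries, and DESeq2 gave no adjusted p for the 3 of them that were joined. Counts of RPFs are not independent molecules. The p-values rest on the spread between the 2 replicates of every treatment in the fit, untreated and ISRIB alone included, and on other transcripts. All of these libraries are of 1 cell line.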

Other observations

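Members of repeated gene families, whose counts are shared with near-identical copies and are uncertain, had a median RPF change of 0.26 over 22 transcripts. Of these 2 were called higher, near the 9.56% of all transcripts, and 0 lower, beside 8.36%. With the replicate block 7 were called higher, and without Tm replicate b or Tm + ISRIB replicate a 0 were. In comparisons that share libraries with this one, their median was 0.45 in Tm against untreated cells and 1.08 in Tm + ISRIB against untreated cells. In the latter 12 were called, beside 2.71% of all transcripts. ANKRD36, of the ankyrin repeat family, changed by 0.72 in Tm + ISRIB against Tm.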
